A study of Homo sapiens with 6 samples.

Results

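The proteasome genes of MDA-MB-453, an established human breast cancer cell line, were described after culture with 25-hydroxyvitamin D (25(OH)D), the circulating form of vitamin D that some cells convert to the active hormone. A gene was taken by its symbol alone, if the symbol was PSM followed by a letter from A to G and a number. This rule, which uses no measured value, found 46 genes among the 33451 listed in the deposited count table, and all 46 had enough counts to be tested among 18183 tested genes. The mRNA of 6 libraries was sequenced on day 5 of culture, 3 with 100 nM 25(OH)D (the experiment group, EG) and 3 with the alcohol that served as its solvent (the control group, CG). Both groups were the same line in the same serum-containing medium. The study's methods call the libraries of a group biological replicates without saying how the cultures were separated, and the p-values measure only the spread between these libraries, of a single line. RNA was measured, and neither subunit protein nor proteasome activity was. In such bulk RNA, fewer cells that express a gene and less RNA per cell cannot be told apart.

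The proteasome degrades proteins that carry ubiquitin chains. Its 20S core is a barrel with outer alpha rings (PSMA genes) and inner beta rings (PSMB genes), in which PSMB5, PSMB6 and PSMB7 hold the constitutive active sites. A 19S cap of ATPases (PSMC genes) and non-ATPase subunits (PSMD genes) recognises, unfolds and feeds in the substrate. In leukocytes and in cells exposed to interferon, PSMB8, PSMB9 and PSMB10 take the places of PSMB5, PSMB6 and PSMB7 to form the immunoproteasome, and the PA28 activator of PSME1 and PSME2 can replace a cap. The peptides that these particles release are a main source of those displayed by MHC class I molecules.

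Because the interferon-linked subunits are set against the constitutive ones, the promoter sequences that carry an interferon response element are given first. The core of this element (ISRE) was searched on both strands as GAAANNGAAA in windows of 300 bases around RefSeq gene starts on GRCh38.p14, and 40 of the 46 genes had 49 such windows. The core was found in 7 of the 49 windows (14.3%) against 3.57% of all 35116 windows, in PSMA4, PSMB4, PSMB8, PSMB10, PSME1, PSME2 and PSMG4. In PSMB8, PSMB10, PSME1, PSME2 and PSMG4 the letters were GAAAGCGAAA, which 35 of all 35116 windows (0.0997%) hold. These exact letters were read from the windows of the proteasome genes themselves, so this share is no independent background for them. The 4 windows of the immunoproteasome and PA28 genes with these letters are shown because PSMB8, PSME1 and PSME2 rose in EG and PSMB10 did not pass the test. The capitals mark the core, read on the other strand in PSMB8 and PSME1. The windows lie at chr6:32843998-32844297 (minus strand) for PSMB8, chr16:67936801-67937100 (minus strand) for PSMB10, chr14:24135944-24136243 (plus strand) for PSME1 and chr14:24146561-24146860 (minus strand) for PSME2, each written 5′ to 3′ along the gene.
PSMB8: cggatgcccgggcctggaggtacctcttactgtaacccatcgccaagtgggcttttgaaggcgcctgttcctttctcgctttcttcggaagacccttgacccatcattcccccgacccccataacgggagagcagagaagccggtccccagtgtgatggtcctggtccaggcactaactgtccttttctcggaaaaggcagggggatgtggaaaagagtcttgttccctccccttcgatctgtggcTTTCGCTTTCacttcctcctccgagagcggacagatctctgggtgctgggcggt
PSMB10: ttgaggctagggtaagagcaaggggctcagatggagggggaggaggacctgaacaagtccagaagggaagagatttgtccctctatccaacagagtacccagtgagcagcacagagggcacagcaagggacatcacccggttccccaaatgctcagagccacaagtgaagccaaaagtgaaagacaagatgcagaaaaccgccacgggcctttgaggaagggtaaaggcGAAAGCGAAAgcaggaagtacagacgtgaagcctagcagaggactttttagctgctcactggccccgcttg
PSME1: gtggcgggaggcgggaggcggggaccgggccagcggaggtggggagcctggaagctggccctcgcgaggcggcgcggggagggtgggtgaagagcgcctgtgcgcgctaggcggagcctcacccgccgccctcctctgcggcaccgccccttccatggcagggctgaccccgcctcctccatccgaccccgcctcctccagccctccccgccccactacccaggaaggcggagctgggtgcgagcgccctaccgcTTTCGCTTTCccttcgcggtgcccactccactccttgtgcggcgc
PSME2: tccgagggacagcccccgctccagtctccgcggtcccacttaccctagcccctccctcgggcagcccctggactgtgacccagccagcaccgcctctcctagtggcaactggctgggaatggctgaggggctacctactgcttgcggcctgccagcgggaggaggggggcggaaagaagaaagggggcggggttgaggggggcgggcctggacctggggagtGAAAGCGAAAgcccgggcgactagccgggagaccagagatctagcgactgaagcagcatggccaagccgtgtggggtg
The core started at base 247 of the PSMB8 window, base 230 of the PSMB10 window, base 256 of the PSME1 window and base 223 of the PSME2 window, counted from 1 at its 5′ end. Of the 8 genes that rose 3 held the core (PSMB8, PSME1 and PSME2), of the 2 that fell and had a window 1 did (PSMA4), and of the 30 uncalled genes with a window 3 did. The PSMB9 window did not hold these letters. Other letters were searched in the same windows. The GAS letters TTCNNNGAA were in 14.3% of the 49 windows and 7.66% of all windows. They were found in 2 of the 8 genes that rose and 5 of the 30 uncalled ones. CCAAT was in 38.8% against 34.6%, and the GC box GGGCGG in 69.4% against 45.0%. The CCAAT letters were in 1 of the 8 genes that rose, 1 of the 2 that fell and 17 of the 30 uncalled ones. For the GC box these numbers were 8 of 8, 2 of 2 and 18 of 30. A match of letters is a description and no factor's binding was measured.

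The 6 libraries held 33268860 to 40928176 counts each. Values are given as CPM, the share of a library's counts, scaled to a fixed total. CPM was adjusted by TMM, which corrects for the RNA composition of a library. The deposited RPKM divides by gene length, which lets genes be compared with each other, and by the total count, without TMM. The TMM factors were 1.01 to 1.02 in CG and 0.980 to 0.993 in EG. RPKM therefore places EG lower against CG than CPM does. A change was called at a Benjamini-Hochberg adjusted p under 0.05 over all tested genes in edgeR's quasi-likelihood test. The defining genes of the line (GATA3, FOXA1, KRT8, KRT18, ERBB2 and FGFR4) all had enough counts to be tested, while ESR1 and PGR had at most 4 and 8 counts in a library. Of 14 listed markers of leukocytes, fibroblasts and endothelial cells 1 had enough counts to be tested (COL1A1), and the leukocyte markers had at most 8 counts in a library. The summed CPM of these 14 markers was 37.2 to 39.3 in CG and 32.6 to 35.4 in EG. Mitochondrially encoded transcripts took 7.85% to 7.99% of counts in CG and 8.89% to 9.24% in EG, and in every library counts of 2 were more frequent than counts of 1. Whether the mates of a read pair were counted separately is not given in the sources used here, and if they were, the counts overstate the number of sequenced fragments. With the mitochondrial genes left out of the library sizes, all 11 calls among the proteasome genes were kept and PSME4 was added.

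Most proteasome genes kept their level within narrow limits, and the share that rose was near that of all tested genes. Of the 46 genes 8 rose in EG, 3 fell and 35 were not called. PSMB8, PSMA6, PSMD1, PSME1, PSME2, PSMD2, PSMC1 and PSMC5 rose, and PSMF1, PSMG3 and PSMA4 fell. The called share was 23.9%, with 17.4% higher and 6.52% lower. Of all tested genes 33.8% were called, 17.3% higher and 16.5% lower. When only library sizes or upper-quartile factors were used for scaling, the counts were 8 higher and 6 lower, with PSMB1, PSMD10 and PSMD12 added among the lower ones. An unadjusted p under 0.05 in edgeR was reached by 16 of the 46 genes (34.8%) and by 42.2% of all tested genes. Exon bases shared with another gene on the same strand were present in 7 of the 46, and without them 7 of 39 rose and 2 fell. None of the 46 exceeded a log2 fold change of 1 in size, which 6.65% of tested genes did at an unadjusted p under 0.05. In 10 genes all EG libraries lay above all CG libraries and in 5 all lay under them, where 45.7% of tested genes did not overlap, 22.8% higher and 22.9% lower.

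The log2 fold changes ran from -0.34 (PSMF1) to 0.51 (PSMB8), with a median of 0.04 against -0.01 over all tested genes. In 40 of the 46 genes (87.0%) the change was under 0.25 in size, compared with 54.0% of all tested genes and with 60.8% of the 13589 tested genes whose mean CPM lay inside the range of the proteasome genes. The median size of the change was 0.09 for the proteasome genes and 0.19 for the genes in that range. The proteasome genes had a median standard error of 0.057, and that of all tested genes was 0.11. Of the 11 calls 7 held under each of 16 alternative settings, those of PSMB8, PSMA6, PSMD1, PSME1, PSME2, PSMD2 and PSMF1.

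**Figure D1:**
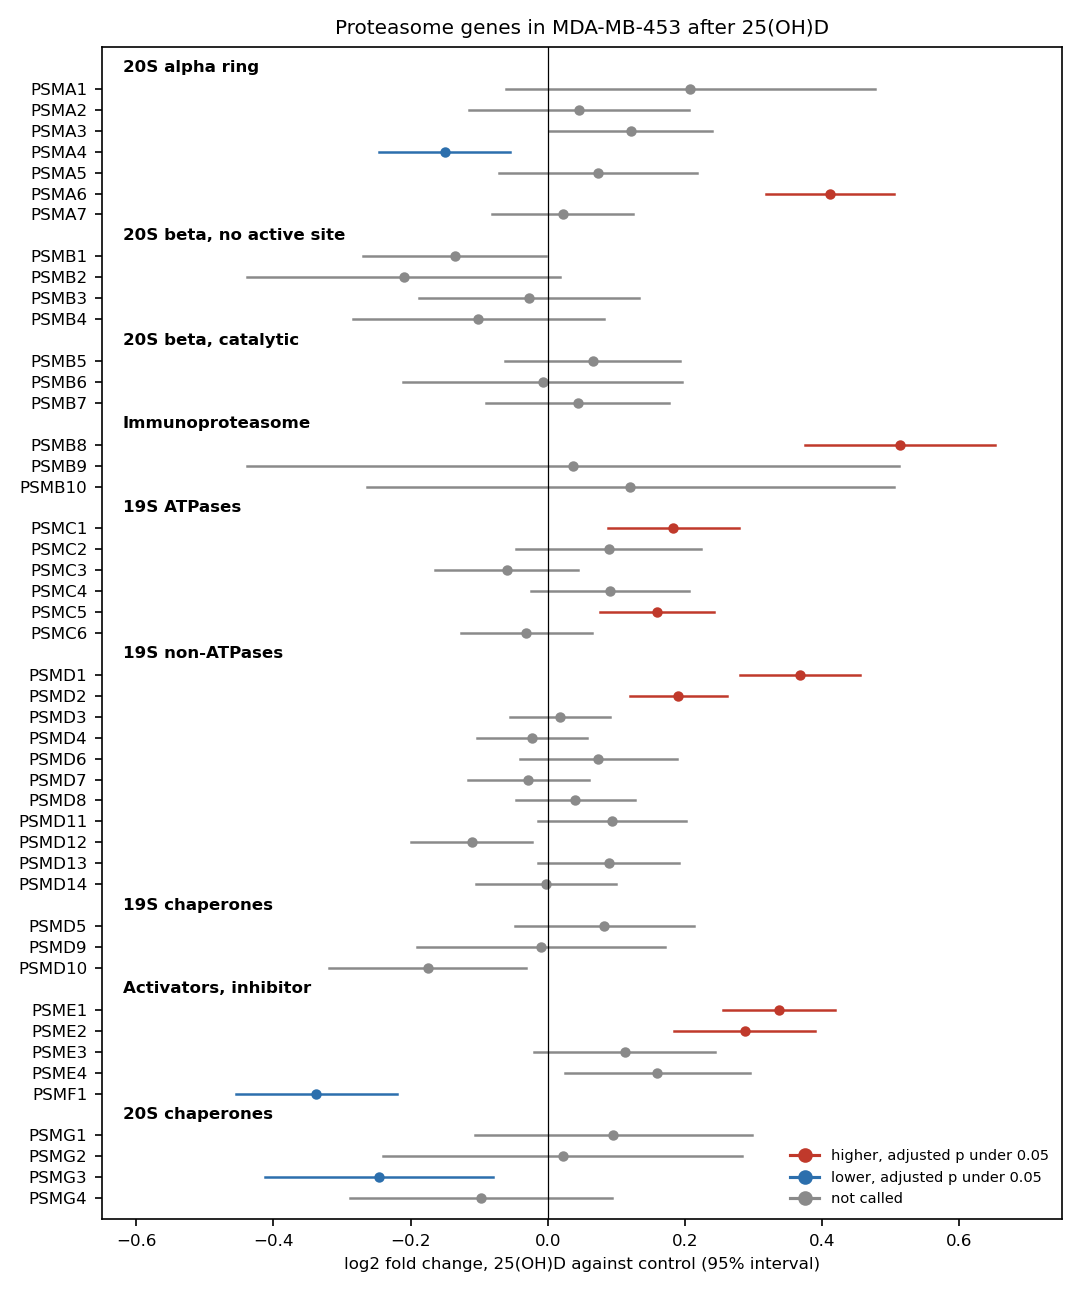
Log2 fold change of each of the 46 proteasome genes, EG against CG, with its 95% interval from edgeR's quasi-likelihood fit (3 libraries per group), ordered by subunit group. The 8 genes in red rose and the 3 in blue fell at an adjusted p under 0.05, and the intervals of PSMB9 and PSMB10 are among the widest.

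PSMB8 had the largest change of the 46 genes. This subunit, also called LMP7 or beta 5i, is the chymotrypsin-like active site of the immunoproteasome. Its level was 24.4, 24.6 and 22.5 CPM in the CG libraries and 34.9, 34.0 and 33.1 CPM in the EG libraries. All EG libraries lay above all CG libraries, with means of 23.8 ± 1.19 and 34.0 ± 0.880 (SD, n = 3 each). The log2 fold change was 0.51 (SE 0.064, 95% interval 0.37 to 0.65), 1.43-fold, with an adjusted p of 2.3e-05 in edgeR's quasi-likelihood test. The gene (chr6:32840717-32844703, minus strand, GRCh38) shares 425 of its 2006 exon bases with the antisense gene PSMB8-AS1. PSMB8-AS1 had 59 to 110 counts in CG and 100 to 125 in EG, against 827 to 1016 and 1080 to 1308 for PSMB8. Its own log2 fold change was 0.54 (SE 0.20) at an adjusted p of 0.0502, so it was not called. Whether strand was used in counting is not given in the sources used here, and the part of the antisense reads in the PSMB8 value was not tested.

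PSMB9 and PSMB10 were low and not called. PSMB9 (LMP2, beta 1i), the immunoproteasome counterpart of PSMB6, had 75, 59 and 62 counts in CG and 50, 68 and 65 in EG. The EG libraries lay on both sides of the CG ones, at 1.42 to 1.99 CPM against 1.56 to 1.80. Its log2 fold change was 0.04 with a 95% interval of -0.44 to 0.51, whose upper limit (0.512) lay just under the log2 fold change of PSMB8 (0.513). PSMB10 (MECL-1, beta 2i), the counterpart of PSMB7, had 189, 145 and 173 counts in CG and 129, 172 and 199 in EG. The groups overlapped again, and the log2 fold change was 0.12 (95% interval -0.26 to 0.50). PSMB9 (chr6:32844136-32859585, plus strand) shares 174 exon bases with PSMB8-AS1 on the same strand. PSMB10 (chr16:67934502-67937087, minus strand) shares 644 bases (34.8% of its exons) with CTC-479C5.12 on the same strand, whose log2 fold change was -0.21 (adjusted p 0.411, edgeR). How reads in shared bases were counted is not given in the sources used here, and their part in the values was not tested.

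None of the 3 constitutive catalytic subunits was called by edgeR, DESeq2 or limma on all 6 libraries, and 0 had an unadjusted p under 0.05 in edgeR. Of all tested genes edgeR called 33.8%, and 42.2% had an unadjusted p under 0.05. PSMB5 (beta 5), the chymotrypsin-like site that PSMB8 replaces, was at 39.8, 42.5 and 44.4 CPM in CG and 43.1, 43.7 and 45.7 CPM in EG, with a log2 fold change of 0.07 (95% interval -0.06 to 0.19). The groups overlapped, as they did for PSMB6 (beta 1, the caspase-like site) at 12.8 to 14.9 CPM in CG and 13.0 to 15.4 in EG. PSMB7 (beta 2, the trypsin-like site) was at 54.4 to 61.7 CPM in CG and 56.2 to 62.1 in EG. The log2 fold changes of PSMB6 and PSMB7 were -0.01 and 0.04.

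**Figure D2:**
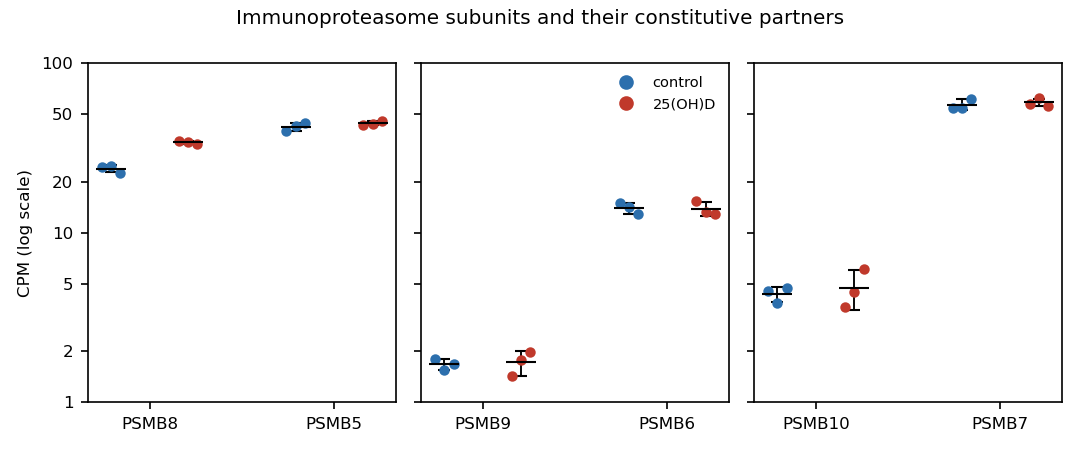
Level in CPM (log scale) of PSMB8, PSMB9 and PSMB10, each beside the constitutive subunit whose place it takes, in the 3 CG (blue) and 3 EG (red) libraries, with the group mean and SD in black. PSMB8 is separated between the groups (22.5 to 24.6 against 33.1 to 34.9 CPM), and the other 5 genes overlap.

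A ratio within a library does not depend on the scaling between libraries. The log2 ratio of PSMB8 to PSMB5 counts was -0.71, -0.79 and -0.98 in CG and -0.31, -0.36 and -0.46 in EG. All 3 EG ratios lay above the CG ratios, with a difference of 0.45 between the means. With 3 against 3 libraries the two-sided exact permutation test cannot go below 0.1, which was the p of this pair (0.3 adjusted over 3 pairs). PSMB8 took 33.2% ± 2.18 of the summed RPKM of PSMB8 and PSMB5 in CG and 40.4% ± 1.34 in EG (SD, n = 3 each). The ratio of PSMB9 to PSMB6 differed by 0.04 and that of PSMB10 to PSMB7 by 0.05, both with overlapping groups and an exact permutation p of 0.9. PSMB9 took 5.39% ± 0.436 of its pair in CG and 5.62% ± 1.33 in EG, and PSMB10 6.88% ± 0.527 and 7.26% ± 1.96 of its own. In the PSMB9 and PSMB10 pairs the EG libraries spread more widely than the CG libraries.

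The immunoproteasome subunits were also set against each other, a comparison added after the data were seen. The log2 ratio of PSMB8 to PSMB9 counts was 3.83 ± 0.135 in CG and 4.31 ± 0.284 in EG, with no overlap (exact permutation p 0.1, 0.2 adjusted over both ratios). That of PSMB8 to PSMB10 was 2.46 ± 0.215 and 2.87 ± 0.408, with overlap (exact permutation p 0.2). This test cannot go below 0.1 with 3 against 3 libraries, so it could not pass the threshold for either ratio. The summed RPKM of the 3 immunoproteasome subunits was 15.5, 15.1 and 14.4 in CG and 19.5, 19.8 and 20.05 in EG, mostly from PSMB8, which gave 12.1 and 16.7 of the group means. The summed RPKM of PSMB5, PSMB6 and PSMB7 was 66.3 ± 2.46 and 66.4 ± 1.62.

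PA28, the interferon-linked activator, rose in both of its subunits. PSME1 (PA28 alpha) was at 339, 353 and 350.1 CPM in CG and 457, 430.3 and 430.4 CPM in EG. PSME2 (PA28 beta) was at 103, 108 and 116 CPM in CG and 133, 131 and 135 CPM in EG. For both genes every EG library exceeded every CG library. The log2 fold changes were 0.34 (SE 0.038, adjusted p 7.69e-06) and 0.29 (SE 0.048, adjusted p 0.000295) in edgeR's quasi-likelihood test. PSME1 was the highest of the 46 genes per length, at 198 ± 4.08 RPKM in CG and 243 ± 7.96 in EG.

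The other activators and the inhibitor of the group went separate ways. PSME3 (PA28 gamma), a mainly nuclear activator, was at 52.2 to 60.8 CPM in CG and 58.5 to 63.0 in EG, and its log2 fold change of 0.11 was not called. PSME4 (PA200), an activator linked to histone degradation, was at 35.6 to 37.6 CPM in CG and 38.0 to 43.0 in EG. These groups did not overlap, but the log2 fold change of 0.16 missed the threshold (adjusted p 0.0661, edgeR). It passed with mitochondrial genes left out and without EG library 3. PSMF1 (PI31), a protein that inhibits the core in vitro, was at 62.2, 63.8 and 63.9 CPM in CG and 51.7, 51.7 and 46.9 CPM in EG. It had the largest fall of the 46 genes, with every EG library under every CG library and a log2 fold change of -0.34 (SE 0.055, adjusted p 0.000233). PSMF1 shares 156 exon bases on its strand with RP4-545L17.12, which had 6 counts in 1 EG library and 0 in the others.

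In the alpha ring, which forms the gate of the barrel, PSMA6 rose, PSMA4 fell and the other 5 genes were not called. Thus 14.3% of the ring's genes rose and 14.3% fell, against 17.3% and 16.5% of all tested genes. PSMA6 was at 218, 219 and 214 CPM in CG and 296, 299 and 270.0 CPM in EG, and the groups were well apart. Its log2 fold change was 0.41 (SE 0.043, adjusted p 4.06e-06, edgeR). PSMA6 shares 919 exon bases (14.1%) on its strand with RP11-561B11.2. That gene had 8532 to 11691 counts, against 7872 to 11507 for PSMA6, and was itself called higher (log2 fold change 0.34, adjusted p 1.51e-05, edgeR). The part of shared reads in the PSMA6 value was not tested. PSMA4 was at 137, 146 and 151 CPM in CG and 132, 128 and 131 CPM in EG. Its libraries did not overlap, and the log2 fold change was -0.15 (SE 0.044, adjusted p 0.0174), the smallest change among the called genes. The call for PSMA4 was lost without CG library 2, without CG library 3 and without EG library 2. PSMA1, PSMA2, PSMA3, PSMA5 and PSMA7 had log2 fold changes of 0.02 (PSMA7) to 0.21 (PSMA1), and their groups overlapped. PSMA1 at 5.87 to 6.90 CPM in CG was the lowest of the ring, and it shares 24.7% of its exon bases with RP11-140L24.4 on the same strand.

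The structural beta subunits, which carry no active site, were not called by edgeR as described or by DESeq2. Of all tested genes edgeR called 33.8%. PSMB1, with an unadjusted p under 0.05 in edgeR, was called lower with upper-quartile factors, with library sizes alone and without CG library 1. All 4 had negative log2 fold changes, at -0.14 for PSMB1, -0.21 for PSMB2, -0.03 for PSMB3 and -0.10 for PSMB4. Only in PSMB2 did the groups not overlap, at 8.83 to 10.4 CPM in CG and 7.59 to 8.39 in EG. The 14 constitutive subunits of the 20S core together held 1 gene that rose (7.14%) and 1 that fell (7.14%). Of all tested genes 17.3% rose and 16.5% fell. Their summed RPKM, scaled without TMM, was 326 ± 8.72 in CG and 330 ± 1.97 in EG, within the spread of the libraries on that scale. A sum on the TMM scale was not computed.

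In the 19S cap 4 of the 17 subunits taken by the symbol rule rose (23.5%, where 17.3% of all tested genes rose). ADRM1 (Rpn13) and SHFM1 (Sem1), given below with the further factors and not called, are outside these 17. None of the 17 was called lower by edgeR as described or by DESeq2. PSMD12 was called lower by limma and by edgeR with upper-quartile factors, library sizes alone or a mean CPM of at least 1. With a replicate block or CG library 3 left out, edgeR also called PSMD12 lower. An unadjusted p under 0.05 in edgeR was reached by 5 of the 17 (29.4%) and by 42.2% of all tested genes. PSMD1 (Rpn2), a scaffold of the base, was at 136, 131 and 135 CPM in CG and 176, 167 and 175 CPM in EG. The groups were well apart, with a log2 fold change of 0.37 (SE 0.041, adjusted p 6.68e-06). PSMD2 (Rpn1), the other large scaffold, was at 764, 748 and 729 CPM in CG and 847, 845 and 865 CPM in EG. Its groups did not overlap and the log2 fold change was 0.19 (SE 0.033, adjusted p 0.000423). The ATPases that rose were PSMC1 (Rpt2) and PSMC5 (Rpt6), motor subunits of the base. PSMC1 was at 417, 452 and 459 CPM in CG and 498, 483 and 527 CPM in EG, with a log2 fold change of 0.18 (adjusted p 0.00536). PSMC5 was at 694, 711 and 761 CPM in CG and 813, 788 and 818 CPM in EG, with a log2 fold change of 0.16 (adjusted p 0.00549). All adjusted p-values are from edgeR's quasi-likelihood test. The EG libraries exceeded the CG ones in both genes, but neither was called by limma on log2 RPKM. PSMC1 shares 75.8% of its exon bases with NRDE2 on the opposite strand, and PSMC5 19.5% with FTSJ3.

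The other ATPases ranged in log2 fold change from -0.06 (PSMC3) to 0.09 (PSMC4). Of the 9 remaining non-ATPases, which include the ubiquitin receptor PSMD4 (Rpn10) and the deubiquitinase PSMD14 (Rpn11), 8 lay between -0.03 (PSMD7) and 0.09 (PSMD11). PSMD11 (Rpn6), a lid subunit, was at 54.6 to 58.1 CPM in CG and 58.9 to 60.4 in EG without overlap, and was not called (adjusted p 0.178, edgeR). The exception was PSMD12 (Rpn5), a lid subunit, at 248.5 to 267 CPM in CG and 235 to 248.9 in EG, whose log2 fold change of -0.11 just missed the threshold (adjusted p 0.0524, edgeR). The summed RPKM of the 17 cap subunits of the symbol rule was 951 ± 10.9 in CG and 973 ± 8.56 in EG. The lowest EG sum (964) lay just above the highest CG sum (963), so on this scale, without TMM, the groups met without overlapping.

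Among the assembly factors 1 gene fell. It was 1 of the 4 chaperones of the core (25.0%), and 0 of the 3 of the cap fell, where 16.5% of all tested genes did. PSMG3 (PAC3), which with PSMG4 guides the alpha ring, was at 15.6, 15.6 and 15.4 CPM in CG and 13.3, 12.7 and 13.3 CPM in EG. The groups did not overlap, with a log2 fold change of -0.25 (SE 0.077, adjusted p 0.0238, edgeR). The call was lost without any 1 of the 3 CG libraries, without EG library 2 and with no filter on low counts. PSMG1, PSMG2 and PSMG4 had log2 fold changes of 0.10, 0.02 and -0.10 and were not called. Of the cap's chaperones, PSMD10 (gankyrin) was at 30.1 to 34.1 CPM in CG and 27.9 to 29.6 in EG, without overlap, and missed the threshold with a log2 fold change of -0.17 (adjusted p 0.0591). PSMD5 and PSMD9 were at 0.08 and -0.01.

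Per length, the transcripts of subunits that share a particle differed widely in level. The 46 genes ran from PSMB9 at 0.555 RPKM to PSME1 at 198 RPKM in CG, 356-fold apart. Within the 20S core, whose subunits stand in equal number in the particle, the means ran from 1.91 (PSMA1) to 110 RPKM (PSMA7), 57.7-fold. Among the 17 cap subunits of the symbol rule they ran from 7.89 (PSMD11) to 163 RPKM (PSMC5), 20.7-fold. The order at the ends was kept in EG for the cap, while in the core PSMB2 at 1.65 RPKM lay under PSMA1 at 2.14. PSMA1 and PSMB2 were at 1.91 ± 0.170 and 1.96 ± 0.176 in CG, within their SD of each other. The RPKM divides by the summed length of all annotated exons, which is 3301 bases for PSMA1 and 1750 for PSMA7. The part of annotated exons that these cells do not use was not tested. The fold changes between the groups were 1.43 at most, far smaller than these differences between genes.

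**Figure D3:**
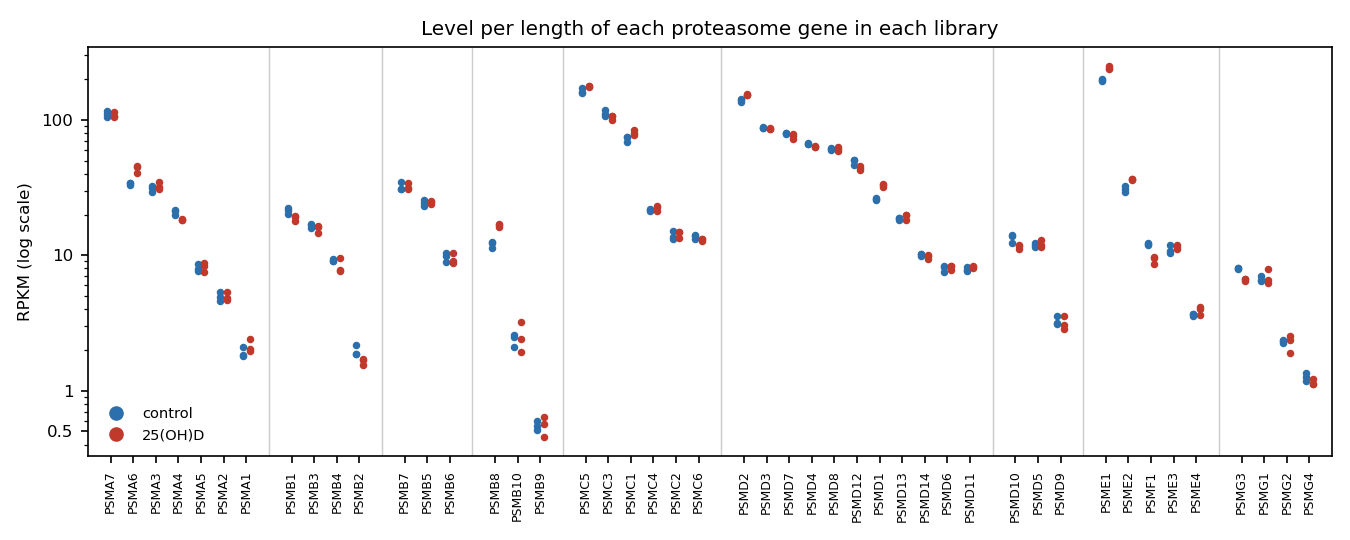
Deposited RPKM (log scale) of each of the 46 proteasome genes in the 3 CG (blue) and 3 EG (red) libraries, in the same subunit groups, ordered by the CG mean within a group. Levels differ between genes by up to 356-fold in CG, while the points of a gene's groups lie close together.

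Genes that act with the proteasome were counted from lists drawn up from general knowledge of the pathway, with earlier results of these data known. Of 10 further proteasome factors 0 were called by edgeR or DESeq2, where edgeR called 33.8% of all tested genes. An unadjusted p under 0.05 in edgeR was reached by 1 of them, against 42.2% of all tested genes. This was TXNL1, a cap-associated thioredoxin (log2 fold change 0.12). POMP, the chaperone that completes the core, was at 83.9 to 102 CPM in CG and 84.2 to 101 in EG, with a log2 fold change of 0.01. ADRM1 (Rpn13), a ubiquitin receptor, and SHFM1 (Sem1), the smallest lid subunit, were at 0.02 and 0.09. PAAF1, which binds the cap's ATPases, had the smallest p in the lower direction, with a log2 fold change of -0.17 (adjusted p 0.128).

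The list of NFE2L1 and its partners held 3 genes that rose among 9 (5 without EG library 3), where 17.3% of all tested genes rose. Its median log2 fold change was 0.19. NFE2L1, the transcription factor that raises subunit genes when proteasome capacity falls short, was at 480.3, 469 and 479 CPM in CG and 529, 539 and 557 CPM in EG. Its groups did not overlap, and the log2 fold change was 0.19 (SE 0.035, adjusted p 0.000819, edgeR). MAFK, a small partner protein of NFE2L1, had the smallest p of the list, with a log2 fold change of 0.51 (20.2 ± 0.223 to 28.8 ± 0.554 CPM, adjusted p 2.13e-05), and MAFG was the other that rose. The antioxidant response element to which these proteins bind was searched as TGACNNNGC on both strands, and 15 of the 49 promoter windows held it (30.6%), compared with 13.3% of all windows. Of the 8 genes that rose 4 held it (PSMC5, PSMD1, PSME1 and PSME2), as did 1 of the 2 that fell (PSMA4) and 10 of the 30 uncalled genes with a window.

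In the interferon list 5 of 9 genes rose and none fell by edgeR or DESeq2, where 17.3% of all tested genes rose in edgeR. An unadjusted p under 0.05 in edgeR was reached by 6, and by 42.2% of all tested genes. The median log2 fold change of the list was 0.26. IRF1, a factor that binds immunoproteasome promoters, was at 5.02 to 6.03 CPM in CG and 3.76 to 6.11 in EG. Its log2 fold change was -0.06 (adjusted p 0.83, edgeR), with overlapping groups. NLRC5, the activator of MHC class I genes, was at 4.05 to 5.43 CPM in CG and 5.31 to 6.58 in EG, and its log2 fold change of 0.33 missed the threshold (adjusted p 0.0898).

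Beside them, 12 of 15 genes of MHC class I loading rose, where 17.3% of all tested genes did, with a median log2 fold change of 0.49. HLA-B had the smallest p (0.97, adjusted p 7.55e-11, edgeR), and ERAP2, a trimming peptidase, was the 1 that fell (-0.50, adjusted p 0.0145, not called by limma on log2(RPKM + 0.1)). TAP1, a subunit of the peptide transporter encoded beside PSMB9, was at 16.8, 13.7 and 13.2 CPM in CG and 21.4, 20.3 and 21.6 CPM in EG. Its libraries did not overlap, and the log2 fold change of 0.53 (adjusted p 0.00041) stood next to 0.04 for PSMB9 and 0.51 for PSMB8 in the same gene cluster. Of 11 genes of ubiquitin supply and delivery 1 rose and 2 fell, where 17.3% of all tested genes rose and 16.5% fell. Of the 2 that fell, UBB (-0.13, adjusted p 0.0145, edgeR) had the smaller p and RPS27A was the other. The number that fell was 1 without CG library 1, CG library 2, EG library 2 or EG library 3, and the number that rose was 2 without CG library 1 and with no filter on low counts.

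**Figure D4:**
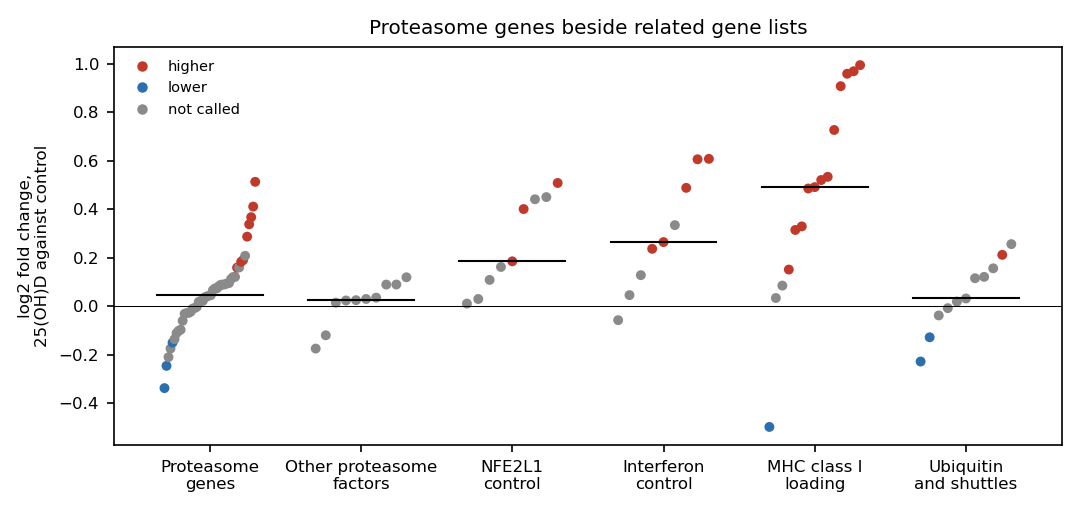
Log2 fold change, EG against CG, of each gene (points, sorted within a list) of the 46 proteasome genes and of 5 related lists, with the median of a list as a black line. Red points rose and blue points fell at an adjusted p under 0.05 in edgeR, and the median is 0.04 for the proteasome genes and 0.49 for MHC class I loading.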

How the data were processed

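The mRNA of MDA-MB-453 cells was sequenced in 6 libraries, 3 per group, and no library was left out. The authors deposited whole-number counts per gene, which the submitters' processing notes link to Trimmomatic (version 0.36), featureCounts of Subread (version 1.5.1) and edgeR (version 3.12.1) on GRCh38. The aligner, the annotation release, the use of strand and the rule for shared bases are not given in the sources used here. The library kit marks strand. The deposited RPKM values equal those counts divided by gene length and by the library's total count.

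Counts were analysed with edgeR (version 4.0.16, R version 4.3.3) by filterByExpr with a minimum count of 10, TMM scaling and the quasi-likelihood test, without a block, with Benjamini-Hochberg adjustment over 18183 genes. Ratios within a library were compared by two-sided exact permutation tests (scipy version 1.17.1). DESeq2 (version 1.42.0) and limma (version 3.58.1) on log2(RPKM + 1) and log2(RPKM + 0.1) served as alternatives, beside other scalings, filters, a replicate block and each library left out in turn. Intervals cover the spread between 3 libraries a group. The members and lists were chosen with earlier results of these data known. All genes of the symbol rule are named, and, as far as they are reported, of each other list the gene with the smallest p in each direction, with NFE2L1, IRF1, NLRC5, TAP1, POMP, ADRM1 and SHFM1 whatever their values, and the genes that share exon bases with PSMB8, PSMB9 or PSMB10. Further genes that were named (MAFG, RPS27A and the other genes with shared exon bases) were picked after their values were seen. Shared exon bases were taken from the exon positions in the deposited count table and promoter windows from RefSeq on GRCh38.p14. The fit was tested on simulated counts for 17892 genes of the same design, where it recovered 39 of 64 genes changed 1.5-fold, 51 of 65 changed 2-fold and 61 of 62 changed 4-fold, with 10 false calls. Proteasome genes of thymus and testis (PSMB11 and PSMA8) were not analysed here, and some genes of the related lists and markers are not reported here.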

Additional observations from a re-analysis of the deposited data

How the results depend on the processing

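Of the 11 calls 7 held under each of 16 alternatives and the other 4 did not. PSMC1 and PSMC5 were lost with limma on RPKM, PSMG3 with no filter on low counts, and PSMA4 and PSMG3 with some libraries left out. The number that rose was 6 to 9 under the alternatives. The number that fell was 3 in the report, 6 with upper-quartile factors and with library sizes alone, 5 with limma at either pseudocount, and 1 to 3 with 1 library left out. It was 1 without CG library 2 and without EG library 2. Genes lower without overlap numbered 5 in the report, 8 with upper-quartile factors and 10 with library sizes alone. Small uncalled log2 fold changes turned sign with upper-quartile factors, library sizes alone, limma on log2(RPKM + 1) and limma on log2(RPKM + 0.1), in that order, in PSMA7 (-0.0203, -0.0224, -0.022, -0.0221), PSMB9 (-0.00486, -0.00707, -0.00293, -0.0117), PSMD3 (-0.0233, -0.0258, -0.0255, -0.0257), PSMD8 (-0.0014, -0.00381, -0.00403, -0.0041), PSMG2 (-0.0193, -0.0227, -0.019, -0.0288), ADRM1 (-0.018, -0.020, -0.0198, -0.0204) and POMP (-0.0261, -0.0294, -0.0291, -0.0296). PSMB7 turned with limma alone (-2.15e-05 and -1.01e-05). With mitochondrial genes left out, chosen after seeing the data, PSMB6 became 0.00483, PSMD9 0.00245 and PSMD14 0.00949. PSMD14 was also positive with DESeq2 size factors (0.00364), no filter (0.00101) and DESeq2 (0.00389). The median of the non-ATPase cap subunits was -0.0014, -0.00381, -0.00403 and -0.0041 under those 4 settings, and that of the activators and inhibitor 0.090 with limma on log2(RPKM + 1). The cause was not tested.

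Single libraries left out moved the log2 fold changes of uncalled genes that turned sign, from -0.00183 to 0.107 (PSMA2), from -0.0137 to 0.0664 (PSMA7), from -0.0584 to 0.0305 (PSMB3), from -0.0864 to 0.0484 (PSMB6), from -0.000247 to 0.112 (PSMB7), from -0.065 to 0.161 (PSMB9), from -0.0865 to 0.277 (PSMB10), from -0.0597 to 0.00995 (PSMD7), from -0.0992 to 0.0625 (PSMD9), from -0.0232 to 0.031 (PSMD14), from -0.00108 to 0.164 (PSMG1), from -0.065 to 0.141 (PSMG2), from -0.192 to 0.134 (IRF1), from -0.0539 to 0.103 (POMP) and from -0.0175 to 0.216 (SHFM1). The medians ran from 0.124 to 0.222 for the activators and inhibitor, from 0.0609 to 0.136 for the alpha ring, from 0.0122 to 0.11 for the constitutive catalytic subunits, from -0.065 to 0.277 for the immunoproteasome and from -0.0992 to 0.0625 for the chaperones of the cap. Deviations of same-numbered libraries correlated at -0.072, -0.012 and -0.046, and those of differently numbered ones at -0.016 to 0.063. With 3 libraries a group this cannot show whether same-numbered cultures were handled together. The fit with a replicate block gave 8 higher and 4 lower, with PSMD12 added. PSMB8 was called under every one of the 16 alternatives. Counts of 50 to 75 per library for PSMB9 and 129 to 199 for PSMB10 limit what could be detected for these genes.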
